A study of Mus musculus with 2 samples.

Results

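The cyclins and kinases that drive the meiotic divisions were followed here through 10 genes, picked by symbol from the row list of the matrix: Ccna1, Ccna2, Ccnb1, Ccnb2, Cdk1, Cdk2, Aurka, Aurkc, Plk1 and Cdc25c. All 10 were present among the 51868 rows, and each symbol matched a single row. Testis tissue came from 2 wild-type littermate mice of the strain C57Bl/6J Crl, 8 weeks old and untreated. Per the paper, a part of the tissue was dissociated without marker selection and strained, partly to keep somatic cells few. It was run as 1 droplet library per mouse, so the mice are the replicates and there was no treatment or genotype to compare. The matrix held 1237 cells from mouse 1 and 1315 from mouse 2, with 7114 to 154431 unique molecular identifiers (UMIs, each counting 1 captured transcript) per cell and no barcode shared between the mice. A gene's level in a group of cells was its UMIs relative to all UMIs of that group, on the CPM scale. Because the assay reads transcript 3′ ends, CPM was not scaled to gene length.

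Entry into a nuclear division is driven by cyclin-dependent kinase 1 (Cdk1) once a B-type or A-type cyclin binds it and a phosphatase of the Cdc25 family removes its inhibitory phosphates. Aurora kinases and Polo-like kinase 1 act in a network with this complex, on spindle poles, centromeres and the release of chromosome cohesion. Male meiosis replaces some of these parts: Ccna1 is the germ cell form of cyclin A and is needed for the first meiotic division in male mice, Aurkc is largely restricted to germ cells, and Cdk2 is needed earlier, for chromosome pairing in prophase.

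Promoter sequences from RefSeq (GRCm38.p6) were at hand for 8 of the 10 genes, without Ccna2 and Cdc25c. They are shown for 4 kinases and cyclins whose levels are compared further on, because they differ in the number and spacing of CCAAT boxes, a common promoter element of cell cycle genes. Each is read 5′ to 3′ toward the gene on its own strand, ends at or before the base preceding the RefSeq start site, and leaves out bases that the annotation places in an exon. Capitals mark CCAAT or its reverse complement ATTGG, and TTTGAA, the core of the cell cycle homology region (CHR).
Aurka, chr2:172370571-172370680, minus strand: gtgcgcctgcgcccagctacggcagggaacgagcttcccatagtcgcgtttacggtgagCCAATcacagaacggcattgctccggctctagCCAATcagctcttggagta
Ccnb2, chr9:70421555-70421704, minus strand: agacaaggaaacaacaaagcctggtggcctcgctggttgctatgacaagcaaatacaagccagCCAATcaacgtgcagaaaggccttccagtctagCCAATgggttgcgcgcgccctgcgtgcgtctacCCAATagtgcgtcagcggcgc
Cdk1, chr10:69352939-69353062, minus strand: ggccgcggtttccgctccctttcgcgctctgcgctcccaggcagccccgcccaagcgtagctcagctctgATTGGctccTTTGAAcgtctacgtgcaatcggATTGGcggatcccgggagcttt
Cdk2, chr10:128705052-128705179, minus strand: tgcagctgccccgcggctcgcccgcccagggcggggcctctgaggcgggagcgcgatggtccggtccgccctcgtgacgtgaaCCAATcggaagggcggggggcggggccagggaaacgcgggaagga

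In the window from 250 bases before to 50 bases after the start site, CCAAT on either strand was found in 8 of 8 genes, against 37.41% of 32851 promoters. TTTGAA was found in Aurka, Ccnb2, Cdk1 and Plk1, 4 of 8, against 17.89% of promoters. Ccnb2 carried CCAAT boxes that began 87, 54 and 21 bases before the start site, 33 bases apart. Aurka had a pair that began 32 bases apart, at 51 and 19 bases before the start, Cdk1 a pair 32 bases apart on the opposite strand, and Ccnb1 a pair 32 bases apart. Boxes of 1 orientation 32 or 33 bases apart thus occurred in 4 of 8 genes and in 0.487% of all promoters (160 of 32851). That spacing was noticed in these sequences before it was counted, so the count is a description. Cdk2, Ccna1, Plk1 and Aurkc held a single CCAAT box each. The cAMP response element TGACGTCA was in 0 of 8 windows and in 1.79% of promoters, and a MYB site (AAC after T or C and before GG or TG, on either strand) was in 2 of 8, Aurka and Cdk1, against 28.26%. The motifs overlapped at none of these positions.

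Cells were placed in 9 clusters built without the 10 genes and without 40 partner genes described further on, and 6 clusters were large enough to test. In the order of their median pseudotime, an ordering of cells by similarity, they were cluster 1 (early spermatocyte-like, 163 cells), cluster 2 (pachytene or later spermatocyte-like, 527), cluster 3 (round spermatid-like, 689, with only 3 of its 14 markers raised, Ssxb1, Ssxb2 and Tex21), cluster 4 (round spermatid-like, 448) and clusters 5 and 6 (elongating or condensing spermatid-like, 514 and 193). Clusters 5 and 6 nearly tied in pseudotime, with medians of 0.9041 and 0.9095. Leydig-like, Sertoli-like and spermatogonium-like clusters held 5, 7 and 6 cells. Fewer transcripts per cell and a larger total of other RNA cannot be told apart on the CPM scale, and the median UMIs per cell were 19866 and 22089 (mice 1 and 2) in cluster 2 against 11304 and 12453 in cluster 5.

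Summed over the 10 genes, the level was 691 CPM in cluster 1 of mouse 1 and 581 in mouse 2, then 2175 and 2086 CPM in cluster 2 and 1827 and 1705 in cluster 3. It was 744 and 742 CPM in cluster 4, 117 and 107 in cluster 5, and 229 and 199 in cluster 6. The summed level was highest in clusters 2 and 3, and the ranges of the 6 clusters did not overlap. The sum is led by the abundant genes, and single genes differed from it. Cdk2 had its highest CPM in cluster 1, but in UMIs per cell cluster 2 was higher (0.569 and 0.674, means of the mice). Cdk1 was lower in cluster 3 than in cluster 1, and Cdc25c was higher in cluster 4 than in cluster 2. Ccna2 had 58 UMIs in all cells.

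**Figure D1:**
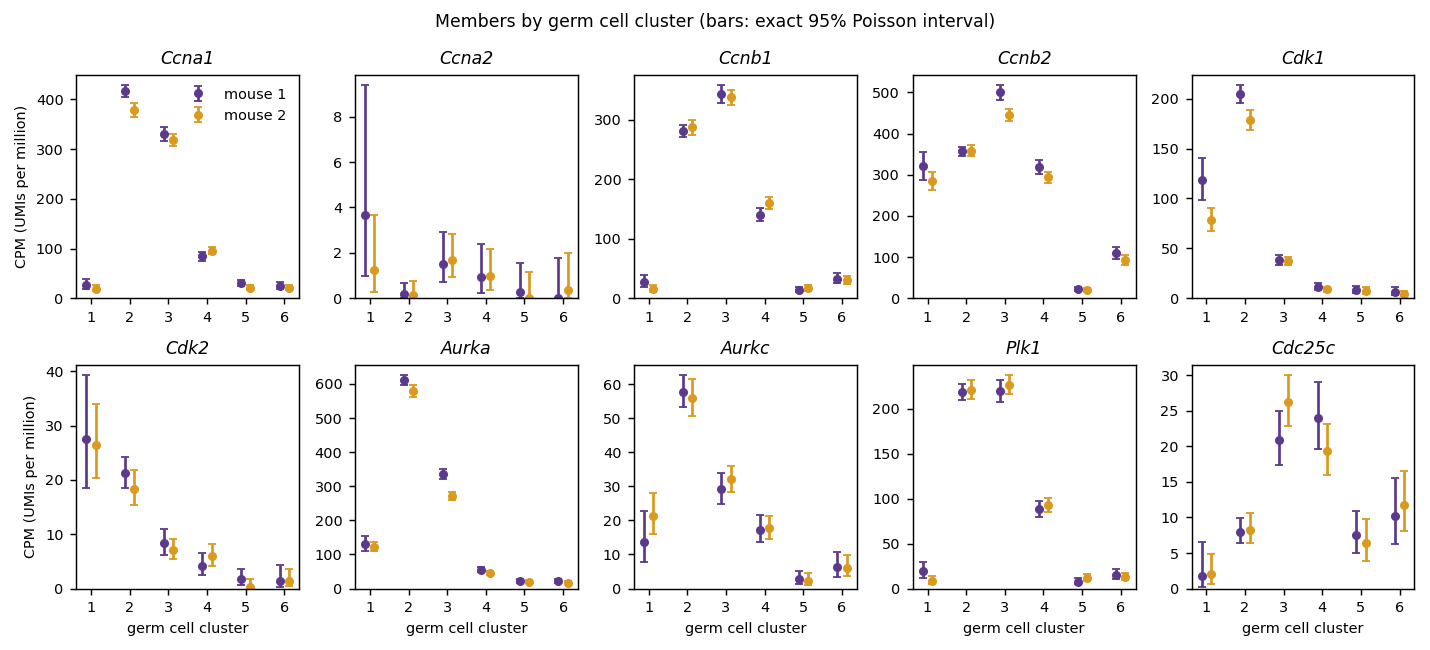
Level of each gene in the 6 germ cell clusters (x axis) as CPM (y axis, linear, a separate scale per gene). Points are mice 1 and 2 and bars are exact 95% Poisson intervals, which cover counting error only. Ccna1, Cdk1, Aurka and Aurkc sit highest in cluster 2, Ccnb1 and Ccnb2 in cluster 3, and Cdk2 in cluster 1.

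The first comparison asked which of the genes differ between neighbouring clusters, with the 2 mice as replicates. Counts were summed per mouse and cluster and tested with edgeR's quasi-likelihood test, and a gene was called at an adjusted p under 0.05 over 14141 genes tested. Ccna2 did not pass the filter on low counts, which left 9 of the 10 genes. From cluster 1 to cluster 2, 8 of 9 rose and 0 fell, where 25.5% of all genes tested were called higher and 24.6% lower. From cluster 2 to cluster 3, 3 rose and 4 fell, against 31.8% and 30.7% of all genes. From cluster 3 to cluster 4, 0 rose and 7 fell, against 25.7% and 20.1%. From cluster 4 to cluster 5, 1 rose and 5 fell, against 26.6% and 31.8%, and from cluster 5 to cluster 6, 1 rose and 3 fell, against 23.6% and 16.3%. The median log2 fold change of the 9 genes was 2.23, -0.24, -0.93, -1.21 and -0.06 in these 5 steps, beside 0, -0.03, -0.06, -0.18 and 0.00 for all genes tested. The fit scales the sums by TMM, which holds the middle of the genes near no change, so its fold changes differ from changes in CPM, by 0.27, 0.06, 0.25, 1.10 and -0.60 on the log2 scale in the 5 steps. On plain CPM without TMM, an alternative added after seeing the data, 7 rose and 0 fell in the first step, then 2 and 4, 0 and 7, 0 and 8, and 3 and 0, and the median of all genes was -0.24, -0.09, -0.30, -1.26 and 0.60. With UMIs per cell in place of the TMM-scaled totals, that median was 0.41, -0.82, -0.14, -2.06 and 1.53. On this scale the count rising from cluster 2 to 3 went from 3 to 1, and from cluster 5 to 6 from 1 to 7. Of all genes, 4498 rose and 4342 fell from cluster 2 to 3 with TMM, and 2947 and 7854 in UMIs per cell. On plain CPM, 2839 rose and 4453 fell in the first step, then 4346 and 4752, and 3081 and 4578. Over all genes, 3756 were called higher and 4496 lower from cluster 4 to 5 with TMM, 1826 and 7849 on plain CPM, and 1148 and 10166 in UMIs per cell. From cluster 5 to 6 these were 3335 and 2302, 5218 and 857, and 9028 and 46, so the split of calls in the last 2 steps depends on the scale. Steps 1 to 2 and 3 to 4 had counts of the 9 genes within 1.5 times of each other on the 3 scales.

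**Figure D2:**
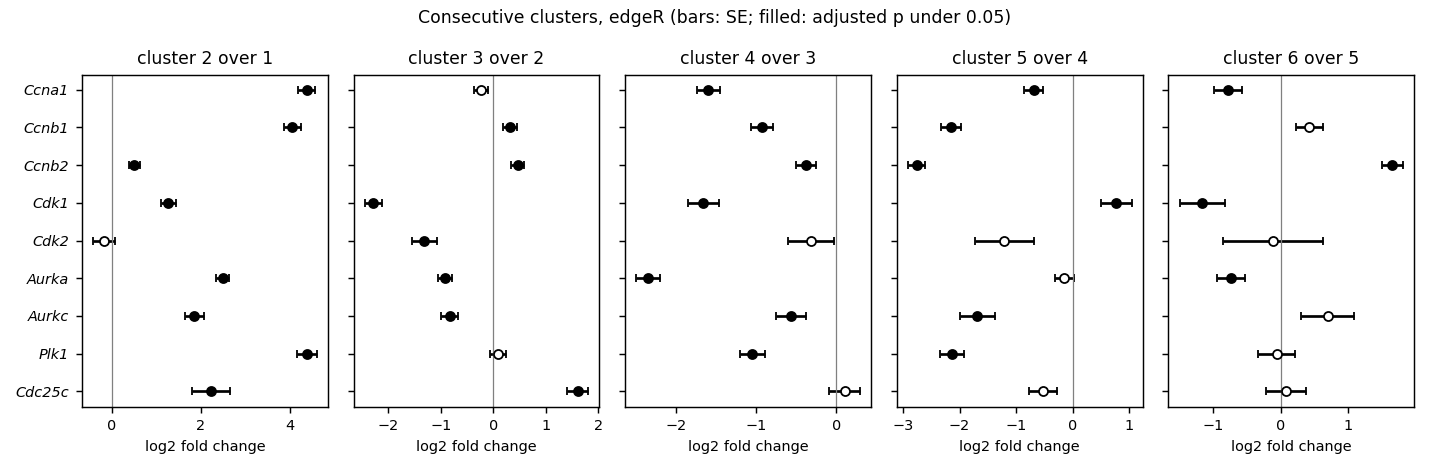
Log2 fold change (x axis) of the 9 genes tested (y axis) in each step between neighbouring clusters, by edgeR with TMM on sums per mouse. Bars are standard errors, filled points passed an adjusted p under 0.05, and the largest rises (4.39 for Ccna1 and Plk1) are in the step from cluster 1 to cluster 2.

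Among the A-type cyclins, nearly all transcripts were Ccna1 (ENSMUSG00000027793, chromosome 3, 55045469 to 55055501, minus strand), with 13093 UMIs. Its level was 27.5 and 19.8 CPM in cluster 1 (mice 1 and 2), 417 and 379 in cluster 2, 330 and 319 in cluster 3, 84.2 and 96.1 in cluster 4, 30.2 and 21.7 in cluster 5, and 24.8 and 21.4 in cluster 6. Clusters 2, 3 and 4 were apart from each other and above the rest in both mice, whereas clusters 1, 5 and 6 overlapped. The rise from cluster 1 to 2 was 4.39 ± 0.19 on the log2 scale (SE, adjusted p = 3.3e-13), and the falls after cluster 3 were -1.60 ± 0.14 (adjusted p = 5.9e-09) and -0.69 ± 0.17 (adjusted p = 0.0012). From cluster 2 to 3 the fold change of -0.24 ± 0.14 did not pass (adjusted p = 0.14), and it passed with the mouse as a block (-0.23, adjusted p = 0.033) and in UMIs per cell (-1.03, adjusted p = 2.6e-06). The fall from cluster 4 to 5 was lost with thinned cells (-0.48, adjusted p = 0.074). The fall from cluster 5 to 6, -0.78 ± 0.20, was lost without mouse 1 in cluster 5 and on plain CPM (-0.18), and turned into a rise of 0.75 in UMIs per cell.

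Ccna2, the cyclin A of dividing somatic cells and spermatogonia, had 58 UMIs in all, at most 3.66 CPM in any germ cell cluster from 1 to 6. In the 6 spermatogonium-like cells it reached 233 CPM (mouse 1) and 182 CPM (mouse 2), from 13 UMIs. Ccna1 made up 88.2% and 94.0% of the Ccna1 and Ccna2 UMIs in cluster 1, 99.95% and 99.96% in cluster 2, and 0% and 11.1% in the spermatogonium-like cells, where these shares rest on 5 and 9 UMIs. The gene Exosc9 on the opposite strand covers the 3′ end of Ccna2 and had 1912 UMIs in the germ cell clusters.

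The B-type cyclins bind Cdk1 and were unlike in when they appeared. Ccnb2 (chromosome 9, 70407692 to 70421547, minus strand) was already abundant in cluster 1, at 321 and 285 CPM, and stayed at 357 and 359 in cluster 2, 500 and 446 in cluster 3 and 318 and 294 in cluster 4. Ccnb1 (chromosome 13, 100778650 to 100786570, minus strand) was at 27.5 and 15.97 CPM in cluster 1, then at 281 and 287 in cluster 2, 343 and 338 in cluster 3, and 141 and 160 in cluster 4. Ccnb2 thus lay between 285 and 500 CPM over the first 4 clusters, while the Ccnb1 level in cluster 1 lay far below those of clusters 2 to 4 in both mice. The log2 rise from cluster 1 to 2 was 4.07 ± 0.19 for Ccnb1 (adjusted p = 4.5e-13) and 0.51 ± 0.13 for Ccnb2 (adjusted p = 0.0021). The Ccnb2 rise was 0.22 and did not pass with DESeq2 (adjusted p = 0.11), and was 0.24 and did not pass on plain CPM (adjusted p = 0.11). As a share of both, Ccnb1 made up 7.89% and 5.31% of B-type cyclin UMIs in cluster 1 (mice 1 and 2), 44.0% and 44.5% in cluster 2, 40.7% and 43.1% in cluster 3, and 30.7% and 35.3% in cluster 4. Shares of UMIs from the same cells do not move with cell size, and the value of cluster 1 was below every other large cluster in both mice.

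From cluster 2 to 3 Ccnb1 and Ccnb2 rose in the fit by 0.32 ± 0.13 and 0.46 ± 0.12 on the log2 scale (adjusted p = 0.039 and 0.0026), but in UMIs per cell they fell by 0.47 and 0.34, where the median of all genes fell by 0.82. The Ccnb1 call was lost on plain CPM (0.26, adjusted p = 0.081), when any of the 4 sums of the contrast was left out, with no gene filter and with cells thinned to 5000 UMIs, where the sign turned (-0.08). The Ccnb2 call was lost without mouse 2 in cluster 2 and without either mouse in cluster 3. The fall of Ccnb2 from cluster 3 to 4 (-0.38 ± 0.12) was lost without mouse 1 in cluster 3 and without mouse 2 in cluster 4. Both cyclins fell from cluster 4 to 5, to 14.7 and 16.9 CPM for Ccnb1 (-2.16 ± 0.17, and -3.26 on plain CPM) and 22.2 and 19.7 CPM for Ccnb2 (-2.76 ± 0.15, and -3.86 on plain CPM). In cluster 6 Ccnb2 was at 110 and 92.5 CPM, above cluster 5 in both mice and by 1.66 ± 0.16 (adjusted p = 2.6e-08). Against cluster 4, cluster 6 was lower for Ccnb2 by 1.10 ± 0.13 on the log2 scale, which places it between clusters 4 and 5 in level. Near-identical rows could share reads with Ccnb1, which was not tested: Ccnb1-ps is 99.2% identical over 394 bases of the transcript end and had 34 UMIs, against 11846 for Ccnb1.

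Cdk1 and Cdk2, the catalytic partners of the cyclins, fell from cluster 2 to cluster 3. In that step Ccnb1 and Ccnb2 were called higher, but by calls that did not hold when sums were left out. Cdk1 (chromosome 10, 69335146 to 69352938, minus strand) was at 118 and 78.2 CPM in cluster 1, 205 and 178 in cluster 2, 38.1 and 37.2 in cluster 3, and 11.4 and 8.91 in cluster 4. Cluster 2 was the highest in both mice, and cluster 3 was below cluster 1. Cdk1 rose by 1.27 ± 0.17 from cluster 1 to 2 (adjusted p = 1.4e-06) and then changed by -2.29 ± 0.16 to cluster 3 (adjusted p = 4.2e-11), the largest fall of the 9 genes in that step, and by -1.66 ± 0.20 to cluster 4. In UMIs per cell the fall of Cdk1 from cluster 2 to 3 was -3.08, beside -1.03 for Ccna1, -0.47 for Ccnb1 and -0.34 for Ccnb2. The call of a Cdk1 rise from cluster 4 to 5 (0.77 ± 0.27, adjusted p = 0.017) went against the CPM, which were 8.60 and 7.32 in cluster 5, and was -0.33 on plain CPM (adjusted p = 0.30) and -1.138 in UMIs per cell. It was lost without mouse 2 in cluster 4, without mouse 1 in cluster 5 and with no gene filter. The fall of Cdk1 from cluster 5 to 6 (-1.17 ± 0.34, adjusted p = 0.0075) was lost with thinned cells, without mouse 1 in cluster 5, without mouse 2 in cluster 6 and on plain CPM (-0.57), and was 0.36 in UMIs per cell.

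Cdk2 (chromosome 10, 128697939 to 128705031, minus strand) was low, with 631 UMIs in all. Its level was 27.5 and 26.5 CPM in cluster 1, 21.2 and 18.4 in cluster 2, 8.34 and 7.08 in cluster 3, and at most 5.94 in clusters 4 to 6. The mice agreed within their counting intervals in each of these clusters, and clusters 1 and 2 were above the rest. The difference of -0.18 ± 0.24 from cluster 1 to 2 did not pass (adjusted p = 0.57), and the fall from 2 to 3 did (-1.31 ± 0.23, adjusted p = 4.1e-05). Cdk1 made up 81.1% and 74.7% of the Cdk1 and Cdk2 UMIs in cluster 1 and 90.6% in both mice in cluster 2.

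Cdc25c, a phosphatase that activates Cdk1, had its highest levels later than Cdk1, in clusters 3 and 4. Its level was 1.83 and 2.10 CPM in cluster 1, 7.96 and 8.27 in cluster 2, 20.9 and 26.3 in cluster 3, 24.0 and 19.3 in cluster 4, 7.49 and 6.37 in cluster 5, and 10.2 and 11.8 in cluster 6. Clusters 3 and 4 overlapped and were above the rest in both mice. It rose by 2.23 ± 0.42 from cluster 1 to 2 (adjusted p = 1.3e-04) and again by 1.61 ± 0.20 from 2 to 3 (adjusted p = 3.6e-07). Cdc25c, Ccnb1 and Ccnb2 were the 3 genes called higher in both steps. The first of these calls rests on 7 UMIs in cluster 1 and was lost with thinned cells (2.01, adjusted p = 0.098). With 815 UMIs over all cells it was a rare transcript.

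Of the Aurora kinases, Aurka (chromosome 2, 172356190 to 172370535, minus strand) acts at spindle poles. Its level in cluster 2 was the single highest value of the 10 genes over the 6 clusters. Aurka was at 131 and 122 CPM in cluster 1, 611 and 579 in cluster 2, 335 and 271 in cluster 3, 54.3 and 46.1 in cluster 4, 21.6 and 20.4 in cluster 5 and 21.4 and 17.1 in cluster 6. Clusters 1 to 4 were apart from each other in both mice. The log2 changes were 2.496 ± 0.15, -0.91 ± 0.13 and -2.35 ± 0.15 in the first 3 steps (adjusted p = 1.6e-11, 3.2e-06 and 2.0e-11). The fall from cluster 5 to 6 (-0.74 ± 0.21) was lost without mouse 2 in cluster 6 and on plain CPM (-0.14) and was a rise of 0.79 in UMIs per cell.

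Aurkc (chromosome 7, 6995300 to 7003091, plus strand) was at 13.7 and 21.4 CPM in cluster 1, 57.8 and 56.0 in cluster 2, 29.1 and 32.04 in cluster 3, 17.3 and 17.7 in cluster 4, and at most 6.31 in clusters 5 and 6. Cluster 2 was the highest in both mice, as for Aurka, and clusters 1 and 4 overlapped. It rose by 1.86 ± 0.21 and then fell by 0.83 ± 0.16 (adjusted p = 1.5e-07 and 1.3e-04), and its fall by 0.56 ± 0.18 from cluster 3 to 4 was lost with thinned cells and without mouse 2 in either cluster. Aurka made up 91.3% and 91.2% of the UMIs of both in cluster 2 and 75.9% and 72.3% in cluster 4. The Aurkc count is uncertain, because 10 other rows are at least 90% identical to its transcript end; Gm12463, with 100% identity over 438 bases, had 160 UMIs against 1755 for Aurkc.

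Plk1 (chromosome 7, 122159439 to 122169873, plus strand), the Polo-like kinase of centrosomes and kinetochores, was at 19.2 and 8.83 CPM in cluster 1, 219 and 221 in cluster 2, 220 and 227 in cluster 3, 88.6 and 93.3 in cluster 4, 7.77 and 11.8 in cluster 5 and 15.5 and 12.9 in cluster 6. Clusters 2 and 3 were not told apart in the fit (0.08 ± 0.15, adjusted p = 0.64), but in UMIs per cell cluster 3 was lower by 0.71, beside the 0.82 of all genes. The rise from cluster 1 to 2 was 4.39 ± 0.22 (adjusted p = 1.6e-12) and the fall from 3 to 4 was -1.05 ± 0.15 (adjusted p = 6.6e-06). From cluster 5 to 6 the CPM were higher in both mice, but the fit gave -0.06 ± 0.27, with 0.54 on plain CPM (adjusted p = 0.13) and 1.46 in UMIs per cell (adjusted p = 1.7e-04).

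The share of cells with a Ccna1 UMI was also counted. After thinning to 5000 UMIs per cell, which all 2552 cells allowed, Ccna1 was seen in 9.43% and 4.55% of cells in cluster 1, 86.3% and 83.6% in cluster 2 and 80.9% and 78.4% in cluster 3. Before thinning these were 41.5% and 27.3%, 97.7% and 99.1%, and 98.7% and 98.4%. In the 5 Leydig-like cells, 1 UMI of 1 of the 10 genes was seen (Cdk2), at median depths of 9991 and 9652 UMIs, too few cells to set a background. The average cell of cluster 2 held UMIs of 4.85 and 4.87 of the 10 genes after thinning, against 2.47 and 1.79 in cluster 1, 4.43 and 4.28 in cluster 3 and 0.563 and 0.483 in cluster 5.

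Cluster 2 was not uniform in these genes. A further K-means step, added after the first results had been seen and therefore without a test, divided it into 2a (89 cells), 2b (203) and 2c (235). The letters follow the mean early spermatocyte marker score from high to low and give no order in time. The 2a cells had the highest Sycp1 (174 CPM, a protein of paired chromosomes) and Piwil1 (342 CPM), and 2c had the most Spag6 (66.1 CPM) and Ssxb1 (20.7 CPM). Haemoglobin genes led 2b, with Hbb-bs at 92.2 CPM against 2.45 in 2a and 5.07 in 2c, and their part in the levels below was not tested. The median depth was 48105 UMIs per cell in 2a, 41163 in 2b and 17026 in 2c.

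Ccnb1 was at 26.7 and 15.2 CPM in 2a (mice 1 and 2), and at 273 and 283 in 2b and 545 and 569 in 2c. Its 2a level was that of cluster 1 in CPM only. In UMIs per cell it was 0.963 in 2a and 0.456 in cluster 1 (means of the mice). Plk1 was at 40.0 and 25.8 CPM in 2a, 237 and 239 in 2b and 341 and 385 in 2c. Ccna1 was at 170 and 115 CPM in 2a, 438 and 412 in 2b and 593 and 586 in 2c. For these 3 genes the sub-clusters were apart from each other in both mice, and 2c was above cluster 3. Aurka was at 365 and 278 CPM in 2a, 660 and 671 in 2b and 706 and 714 in 2c. Aurkc was at 60.0 and 51.1 CPM in 2a, 60.4 and 64.8 in 2b and 48.4 and 45.0 in 2c, so its level in 2a was not below that in 2c.

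Cdk1 was at 76.2 and 52.2 CPM in 2a, 268 and 247 in 2b and 152 and 180 in 2c. It was the only 1 of the 10 genes with its highest value in 2b in both mice and a lower one in 2c beyond the counting intervals. Cdk2 was at 33.3 and 26.8 CPM in 2a and 7.77 and 12.3 in 2c, and Cdc25c at 0.952 and 1.52 in 2a and 12.8 and 14.8 in 2c. The Ccnb1 share of B-type cyclin UMIs was 10.2% and 6.01% in 2a, 43.5% and 44.5% in 2b and 53.4% and 53.8% in 2c. Ccnb2 itself was at 235 and 238 CPM in 2a. In 2c it was at 477 and 489 CPM, beside 500 and 446 in cluster 3, so the mice differed in which was higher. In UMIs per cell, 2b exceeded 2c for each of Ccna1 (20.8 and 10.4, means of the mice), Ccnb1 (13.6 and 9.85), Aurka (32.6 and 12.6) and Plk1 (11.7 and 6.43), so the order of 2b and 2c for these genes depends on the scale. The order of 2a and 2c also depended on it for Ccnb2, with means of 10.8 and 8.54 UMIs per cell. For Aurka these means were 14.8 (SD 3.23) and 12.6, and for Cdk1 2.95 and 2.94. Ccna1, Ccnb1, Plk1 and Cdc25c stayed lower in 2a than in 2c on both scales.

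**Figure D3:**
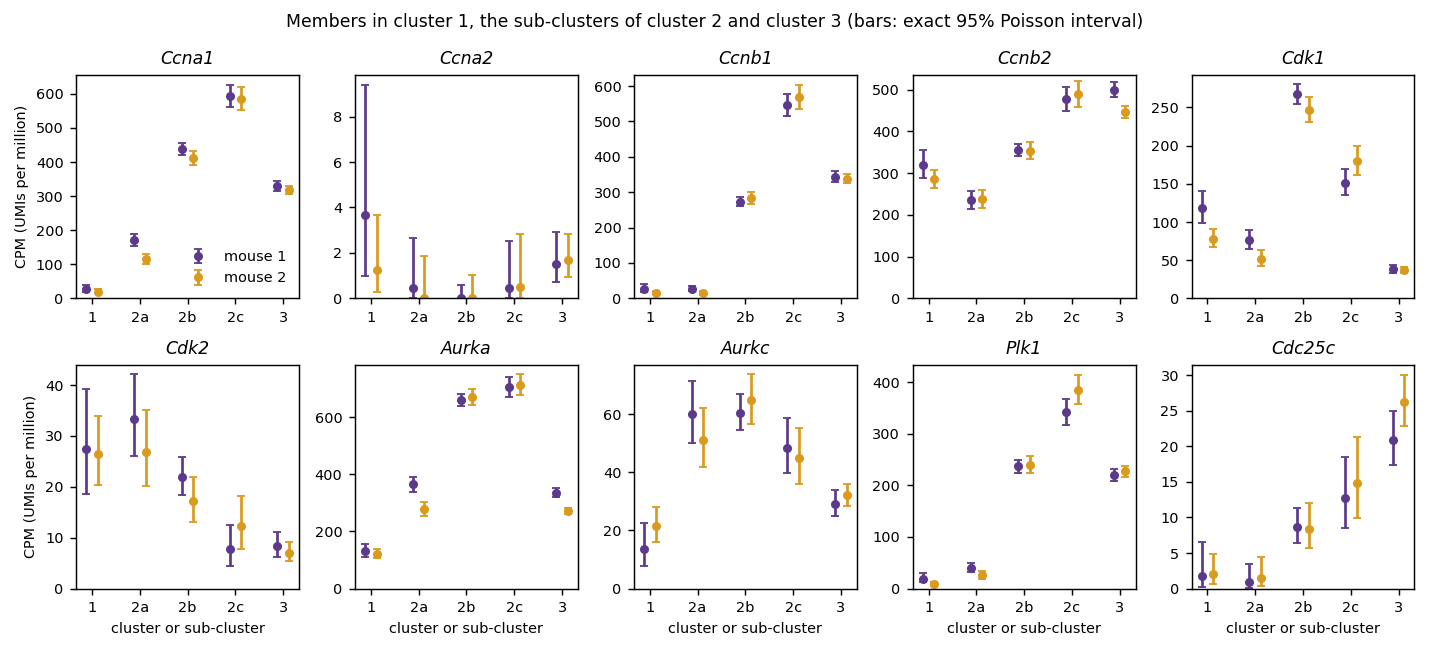
Level of each gene as CPM (y axis, linear, a separate scale per gene) in cluster 1, the sub-clusters 2a, 2b and 2c, and cluster 3 (x axis). Points are mice 1 and 2 and bars are exact 95% Poisson intervals. On the CPM scale Ccnb1 stays near its cluster 1 level in 2a, while Aurka, Aurkc and Plk1 are above theirs in both mice.

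Along the pseudotime of 2534 germ cells, divided in 20 bins of equal cell number, Cdk2 was highest in bin 2 in both mice (30.1 and 26.1 CPM), Cdk1 in bin 5 (251 and 232), Ccnb2 in bin 7 (530 and 495) and Cdc25c in bin 11 (31.2 and 34.0). Aurkc was highest in bins 5 and 4. The highest bin of Ccna1, Aurka and Plk1 was 6 in mouse 1 and 3 in mouse 2, and that of Ccnb1 7 and 3. These bins are by CPM. In UMIs per cell, over both mice, Ccna1, Ccnb1, Ccnb2, Cdk1, Aurka, Aurkc and Plk1 were all highest in bin 5. Cdk2 and Cdc25c kept bins 2 and 11. The median depth was 39268 UMIs per cell in bin 5 and 17550 in bin 7, so the order of Cdk1 and Ccnb2 depends on the scale. Levels of at least 50% of the highest bin ended with bin 5 for Cdk2 and bin 6 for Cdk1 in both mice, with bins 7 and 8 for Aurka, 8 and 10 for Aurkc, 9 for Ccna1, 11 for Ccnb1 and Plk1, 13 for Ccnb2, and 14 and 13 for Cdc25c. On the CPM scale and in this ordering, the end of Cdk1 thus came before those of Ccnb1, Plk1, Ccnb2 and Cdc25c in both mice. The ends were not computed in UMIs per cell or in another ordering. With 20 components and 15 neighbours, Cdk1 was highest at 27.5% of the ordered cells. That was after Ccnb1 and Plk1 (17.5%) and before Ccnb2 (42.5%) and Cdc25c (47.5%). Bins 2 to 5 held mostly cells of cluster 2, where pseudotime did not follow the sub-clusters (medians 0.310 in 2a, 0.407 in 2b and 0.382 in 2c), and no time order is read from those bins.

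**Figure D4:**
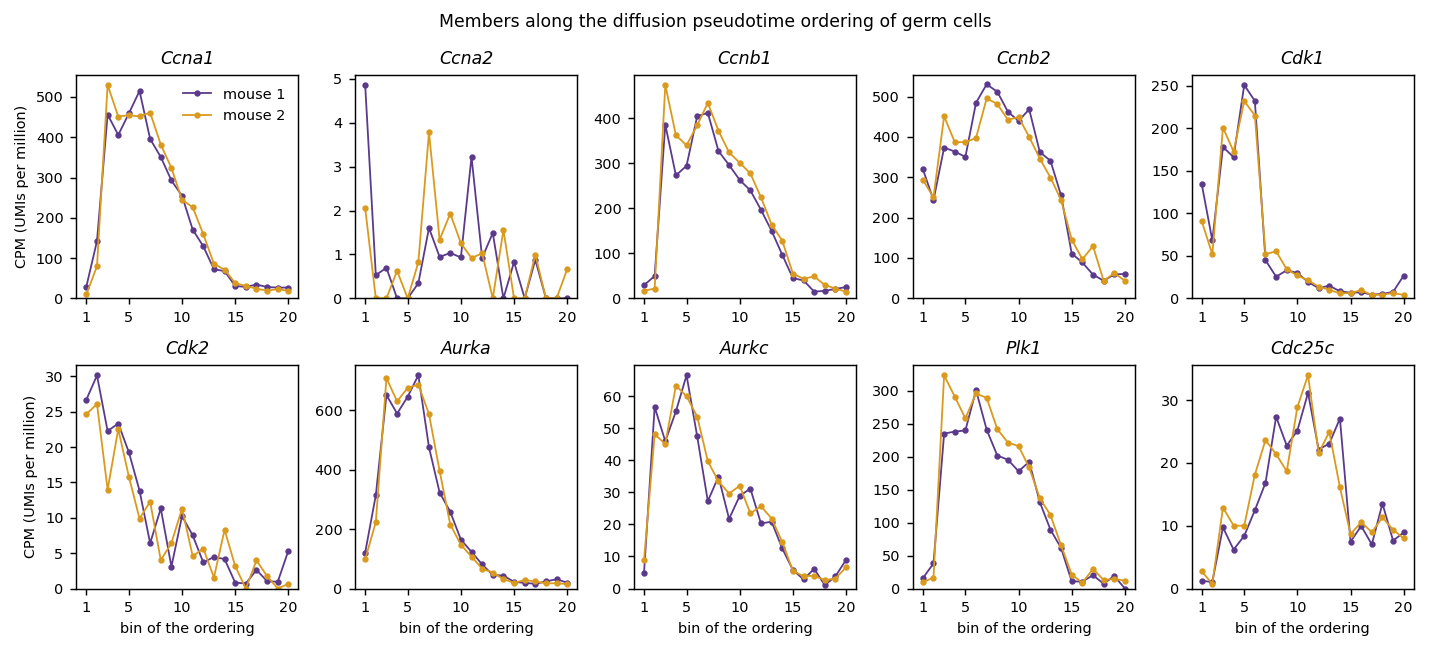
Level of each gene as CPM (y axis, linear, a separate scale per gene) in 20 bins of equal cell number along the pseudotime of germ cells (x axis), 1 line per mouse. Cdk1 drops after bin 6 whereas Ccnb1, Ccnb2 and Plk1 stay above 50% of their highest bin to bin 11 or later, and the scattered Ccna2 line rests on 58 UMIs.

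Over these 20 bins, the profile of each gene was set beside those of 5854 genes with at least 500 UMIs in each mouse, by Pearson's correlation of log2(CPM + 10), taking the lower of the mice. These are descriptions, since the bins share cells, libraries and depth. Ccnb1 was nearest to Cdc25a, the gene of another Cdk-activating phosphatase (r = 0.982), before 4930483J18Rik and Hoxd8. Ccna1 was nearest to Pdzd9 (r = 0.979), Rgcc and Ubl7, Ccnb2 to Ruvbl2 (r = 0.991), Lztfl1 and Cenpw, and Plk1 to Agtr1a (r = 0.976), Fa2h and Gosr1. Cdk1 was nearest to Ntmt1 (r = 0.971), Sgol2a, which protects centromeric cohesion, and Golga1, and Cdk2 to Eif2b5 (r = 0.932), Sptan1 and Mphosph10. For Aurka the nearest were Rpa1, a subunit of the single-strand DNA binding protein (r = 0.991), Mapk8ip2 and Kdm4d, for Aurkc 4930522O17Rik (r = 0.969), 4930555A03Rik and Mesp1, and for Cdc25c Phf6 (r = 0.920), Limch1 and Rhno1. Ccna2 had no near profile, with Nucb2 the nearest at r = 0.692. Among the 10 genes themselves on the same scale, Ccnb1 and Plk1 were the most alike (0.960 and 0.983 in mice 1 and 2), and Cdk1 and Cdc25c were unlike (-0.36 and -0.07), while Ccnb1 and Cdc25c were at 0.51 and 0.71.

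The partners of these genes were taken as 40 genes in 4 lists, of which 34 passed the filter. From cluster 1 to 2, 16 rose and 10 fell, from 2 to 3, 5 rose and 18 fell, from 3 to 4, 5 and 13, from 4 to 5, 10 and 9, and from 5 to 6, 8 and 7. Of all genes, 25.5% rose and 24.6% fell in the first step and 31.8% and 30.7% in the next. In the later 3 steps the shares were 25.7% and 20.1%, 26.6% and 31.8%, and 23.6% and 16.3%. On plain CPM the partner counts were 12 and 13, 4 and 20, 5 and 18, 5 and 21, and 12 and 4. All genes tested (14141) gave 2839 and 4453, 4346 and 4752, 3081 and 4578, 1826 and 7849, and 5218 and 857. In UMIs per cell the partner counts were 19 and 6, 2 and 25, 5 and 15, 3 and 28, and 23 and 0. All genes gave 4944 and 2158, 2947 and 7854, 3354 and 3114, 1148 and 10166, and 9028 and 46. The partners thus mostly moved with all genes in the last 2 steps on this scale. Among 12 genes of Cdk phosphatases, kinases and assembly (10 tested), 3 rose and 4 fell in the first step. In the next, 0 rose and 5 fell. The counts of the first step lie near the shares of all genes. Cdc25a was at 17.4 and 11.8 CPM in cluster 1, 96.3 and 92.3 in cluster 2 and 99.7 and 93.6 in cluster 3, and rose by 3.02 ± 0.19 in the first step. Clusters 2 and 3 of Cdc25a overlapped in CPM, with a change of 0.09 that was -0.70 in UMIs per cell. Cks2, a small Cdk-binding subunit, went the other way, from 1060 and 990 CPM to 316 and 302 and to 32.2 and 28.8, with log2 changes of -1.46 ± 0.14 and -3.28 ± 0.15. Hspa2, the chaperone needed to assemble Cdk1 with cyclin B1 in mouse spermatocytes, was at 1490 and 1552 CPM in cluster 2 and 1286 and 1301 in cluster 3, a difference that did not pass (-0.17) and was a called fall in UMIs per cell (-0.97).

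Of 11 Aurora and Polo partners (10 tested), 8 rose and 1 fell from cluster 1 to 2, and 1 rose and 5 fell from 2 to 3. Among all genes, 25.5% rose and 24.6% fell from cluster 1 to 2, and 31.8% and 30.7% from 2 to 3. Aurkb, the third Aurora kinase, rose by 2.97 ± 0.39 from 0.916 and 4.20 CPM to 21.0 and 20.8 and fell by 1.72 ± 0.26 to 5.96 and 6.12. Its 0.916 CPM in cluster 1 of mouse 1 lies below the 2.75 CPM of 3 counts there, so the size of the rise is uncertain. Cdca8, a chromosomal passenger subunit with Aurkb or Aurkc, was at 289 and 277 CPM in cluster 1, 318.5 and 307 in cluster 2 and 38.0 and 32.04 in cluster 3, a change of -3.10 ± 0.16 in the later step. Incenp, the scaffold of that complex, did not pass in that step (-0.37 ± 0.18, adjusted p = 0.085). In UMIs per cell it was a called fall (-1.16), where the median of all genes was -0.82. Bora, which helps Aurka activate Plk1, was the one that rose from 2 to 3, by 1.25 ± 0.18 (0.46 in UMIs per cell), from 31.5 and 31.9 to 71.8 and 72.7 CPM. Its CPM in cluster 3 were above those of the other 5 clusters in both mice.

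Of 12 other cyclins, Cdks and inhibitors (9 tested), 4 rose and 3 fell from cluster 1 to 2, and 2 rose and 5 fell from 2 to 3. The shares of all genes were 25.5% and 24.6%, and 31.8% and 30.7%, and no difference of the list from them was tested. Ccne2, a cyclin that partners Cdk2, fell by 3.25 ± 0.17 and then 3.13 ± 0.23, from 244 and 236 CPM to 19.4 and 22.8 and to 2.68 and 1.92. Ccnd3 rose by 4.02 ± 0.21 from cluster 2 to 3, from 6.52 and 8.80 to 106 and 130 CPM, and was between 109 and 176 CPM in clusters 4 to 6. Its rise was 3.24 in UMIs per cell. Of 5 genes of mitotic exit phosphatase control, all tested, 2 rose and 3 fell from cluster 2 to 3 and 3 rose from 4 to 5. In UMIs per cell these were 0 and 3, and 1 and 3. All genes tested had 31.8% rising and 30.7% falling from 2 to 3, and 26.6% and 31.8% from 4 to 5. In UMIs per cell, 2947 and 7854 of 14141 genes did so from 2 to 3, and 1148 and 10166 from 4 to 5. Ppp2r2b, a regulatory subunit of protein phosphatase 2A, rose by 4.92 ± 0.17 from cluster 4 to 5 (3.81 on plain CPM and 3.01 in UMIs per cell), from 31.2 and 35.8 to 432 and 515 CPM. Mastl, the Greatwall kinase, was at most 16.4 CPM in every germ cell cluster from 1 to 6.

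Between the mice, over all cells Cdk1 was at 94.6 CPM in mouse 1 and 63.7 in mouse 2, a ratio of 0.673 (95% interval 0.634 to 0.714), and Aurka at 322 and 240 CPM, a ratio of 0.747 (0.724 to 0.770). Within cluster 2 the ratios were 0.871 (0.813 to 0.933) and 0.948 (0.912 to 0.985). Within cluster 1 they were lower for some genes, at 0.459 for Plk1, 0.581 for Ccnb1 and 0.662 for Cdk1. Mouse 1 had 307 of its cells in cluster 2 and mouse 2 had 220. The intervals cover counting error only, and with 1 library per mouse a difference between mice and one between libraries cannot be told apart. Ccnb2 (0.959) and Ccnb1 (0.973) were closer between mice over all cells.

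In the cells outside the 6 clusters the numbers were small. The 6 spermatogonium-like cells had Ccnb1 at 654 and 319 CPM, Ccnb2 at 420 and 296, Plk1 at 140 and 205 and Cdk1 at 187 and 114, against 0 UMIs of Aurkc and Cdc25c among 65367 UMIs, which allows up to 45.9 CPM. In the 7 Sertoli-like cells Cdk1 had 13 UMIs and was seen in all 7 cells. Mouse 1 gave 11 of these UMIs from 6 cells (152 CPM), and mouse 2 gave 2 from 1 cell (164 CPM). The level in mouse 2 lies below the 245 CPM that a count of 0 in that cell would allow, so it adds no usable replicate. Aurkc and Cdc25c were at 0 of 84783 UMIs in the Sertoli-like cells, which allows up to 35.4 CPM. Cdk1 was singled out there after its values had been seen. The limits of 45.9 and 35.4 CPM are above the Cdc25c level in every germ cell cluster (at most 26.3 CPM). They are also above the Aurkc level outside cluster 2, so these zeros show no difference from those clusters. The 5 Leydig-like cells had 1 UMI of the 10 genes among 50713.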

How the data were processed

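Unsorted testis cells of 2 mice were profiled with the Chromium 3′ v2 droplet assay. Per the labels, the authors used bcl2fastq 2.17.1.14 and Cell Ranger 2.0.0 with build mm10. They brought both libraries to equal reads per cell by downsampling, and the deposited values are unscaled UMI counts for every row and cell. Per the paper, the reference was a custom GRCm38 with repeats masked and transposable elements added as extra chromosomes. What the masking did to the counts of single genes was not tested. Mouse 1 had 27450497 UMIs (median 17871 per cell) and mouse 2 had 30302332 (median 19184). Cells were assigned to a mouse by the barcode ending.

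All 2552 cells and 51868 rows were kept. Counts were scaled to the median total, log2-transformed after adding 1 and standardised over 27741 rows, with 49 detected rows of the 10 genes and their 40 partners left out. K-means (K = 9, 10 restarts, seed 42) ran on 10 principal components, and clusters were named from marker lists. Germ cells were ordered by diffusion pseudotime (30 neighbours). scrublet marked 25 cells as doublets (16 and 9), which were kept.

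The main test was edgeR's quasi-likelihood test on sums per mouse and cluster (TMM, filterByExpr, all 12 sums in 1 fit, Benjamini-Hochberg over 14141 genes), and the standard error is the log2 fold change divided by the square root of F. p-values measure the spread between 2 littermates and assume that the clusters are known. Sums of the same number come from the same animal, and their deviations from the cluster means correlated at 0.020 to 0.230 over 15 pairs, so a block for the mouse was an alternative. Others were DESeq2, no filter, plain CPM without TMM, UMIs per cell, thinned cells, no doublets and each sum left out. CPM carry exact Poisson intervals and shares exact binomial ones, at 95%. Where no UMI was seen, the limit is 3 counts of the total. The procedure was also run on simulated counts in which a small set of genes changed in 1 cluster. All other genes were equal there, unlike in the data, so that run does not bear on the choice of scale.

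The 10 genes, the partner lists and the markers were chosen with earlier results of these data known. Named genes are the 10, their partners, for each of the 10 the 3 genes of nearest profile (for Ccna2 only the nearest is reported here), and copies or overlapping genes. Copies are transcripts with at least 90% identity over at least 90 of the last 500 bases (blastn 2.17.0, GENCODE). Fits ran in edgeR 4.0.16 and DESeq2 1.42.0 under R 4.3.3, clustering and ordering in Python 3.11.15 with scanpy 1.11.5 and scikit-learn 1.9.0, and intervals in scipy 1.17.1. Reads and the authors' cell type table were not used here.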

Additional observations from a re-analysis of the deposited data

Results flagged for a closer look

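Cells of the spermatogonium-like cluster entered no comparison, and 4 of the 10 genes had more than 3 UMIs in each mouse there. Over both mice and 6 cells the levels were 198.9 CPM for Ccna2, 428.4 CPM for Ccnb1, 336.6 CPM for Ccnb2 and 137.7 CPM for Cdk1. The largest germ cell cluster level of Ccna2 elsewhere was 3.66 CPM. No tested group held samples enough for a check of outlying samples.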

How the results depend on the processing

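The 10 counts of genes that rose or fell between neighbouring clusters were recomputed under each alternative. The filter on low counts was remade each time. Ccna2 can therefore enter the counts with no gene filter or with a sum left out, so they need not cover the same 9 genes. With DESeq2, thinned cells, no doublets and the mouse as a replicate block, the counts stayed within 1.5 times of those reported (with the block, 8 rose and 0 fell from cluster 1 to 2), and the block changed 2 of 45 single calls, both to past the threshold: Ccna1 from cluster 2 to 3 (-0.23) and Cdk2 from 4 to 5 (-1.23). Of all 14141 genes, 3893 rose and 3808 fell from cluster 1 to 2 with the block. With no gene filter, 1 gene fell from cluster 1 to 2 in place of 0, 0 in place of 1 rose from 4 to 5, and 8 in place of 5 fell. Of all 27526 genes then tested, 4324 rose and 2833 fell from 1 to 2, and 3220 and 5543 from 4 to 5. In UMIs per cell, 1 rose and 8 fell from cluster 2 to 3, 0 rose and 9 fell from 4 to 5, and 7 rose and 0 fell from 5 to 6. Of all 14141 genes tested, 2947 rose and 7854 fell on that scale from 2 to 3. From 4 to 5 these were 1148 and 10166, and from 5 to 6 they were 9028 and 46. Most genes thus moved the same way in these 3 steps. On plain CPM without TMM, an alternative chosen after seeing the data, 0 rose and 8 fell from cluster 4 to 5. From 5 to 6, 3 rose and 0 fell on plain CPM. All genes on plain CPM gave 1826 and 7849 from 4 to 5, and 5218 and 857 from 5 to 6. With cluster 6 placed after cluster 4, an order chosen after seeing the data, 0 rose and 7 fell in the step from cluster 4. Of all 14141 genes, 3298 rose and 2907 fell in that step. Leaving out a sum changed, in some fits, the counts falling from cluster 1 to 2 and from 5 to 6 and the count rising from 4 to 5. Such a fit leaves 1 mouse in a cluster, and its counts are not given here. From cluster 2 to 3, Ccnb1 lost its call whichever sum was left out. Ccnb2 lost its call there without mouse 2 in cluster 2 and without either mouse in cluster 3.

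Log2 fold changes that changed sign in UMIs per cell, with a call on at least 1 of the scales, were those of Ccnb1 (-0.47), Ccnb2 (-0.34) and Plk1 (-0.71) from cluster 2 to 3, Cdk1 from 4 to 5 (-1.138), and Ccna1 (0.75), Cdk1 (0.36), Aurka (0.79) and Plk1 (1.46) from 5 to 6. On plain CPM Cdk1 from 4 to 5 was at -0.328. With thinned cells Ccnb1 from 2 to 3 was at -0.081. The alternatives in UMIs per cell and without TMM rescale all genes of a sum by 1 factor; the cause of the others was not tested. A highest bin counted as moved if it shifted by more than the SD between the mice. By this rule 6 of 10 moved with 20 components and 15 neighbours, and none with a second starting cell. Those of Ccna1, Aurka and Plk1 shifted from 27.5% to 17.5% of the ordered cells but did not count, because the mice differed. With 10 bins 5 of 10 counted as moved, but for Ccnb2, Cdk1, Cdk2 and Cdc25c the wider bin contained the original one. In UMIs per cell only Ccnb2 counted as moved, from 32.5% to 22.5% of the ordered cells. Ccnb1 shifted by as much but did not count, because the mice differed. Ccna2, Cdk2 and Cdc25c had 58, 631 and 815 UMIs in all, so small changes in them were not detectable at this depth.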
